A study of Rattus norvegicus with 15 samples.

Results

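Repeated L-DOPA was compared with no L-DOPA in the striatum of the rat, with 9 arrays of treated rats set against 6 arrays of rats that had never received the drug. L-DOPA is the precursor of dopamine given to replace the transmitter in Parkinson's disease, and its long use brings on involuntary movements termed L-DOPA-induced dyskinesia (LID). By their titles, the L-DOPA arrays belonged to the LID+PD98059, LID+Vehicle and LID groups and the untreated arrays to the PD and Normal groups, with 3 arrays in each group and together all 15 arrays of the series. The group means were weighted equally on each side. All rows of the array with 1 gene symbol were described, which were 18511 of 36685 rows, and p-values were adjusted over all 36685.

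All rats were male Sprague-Dawley rats, 1 rat per array, and the tissue was the striatum of the operated side. Rats of the 3 L-DOPA groups and of the PD group carried a unilateral lesion of the nigrostriatal pathway made with 6-OHDA, a toxin taken up by dopamine neurons, and the Normal rats were sham operated. The 3 L-DOPA groups received L-DOPA daily for 3 weeks, with benserazide, which keeps L-DOPA from being converted outside the brain, and only rats with established dyskinesia entered these groups. PD98059, an inhibitor of the kinase MEK that activates ERK, was given into the lateral ventricle of the LID+PD98059 rats on 12 days from day 10 of L-DOPA, and LID+Vehicle rats received its carrier through the same kind of cannula. L-DOPA exposure and dyskinesia therefore cannot be told apart on this side, and against Normal rats the lesion comes with both. The study describes infusion for the LID+Vehicle and LID+PD98059 rats only, so infusion also falls on the L-DOPA side alone. It reports lower dyskinesia scores under PD98059, so dyskinesia was not uniform on this side. In a bulk sample, fewer cells of a type and less RNA per cell cannot be told apart either.

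Striatal projection neurons are GABAergic cells that receive dopamine from the midbrain and glutamate from the cortex and thalamus. Neurons of the direct pathway carry D1 receptors, which raise cAMP, and release dynorphin and substance P, whereas neurons of the indirect pathway carry D2 receptors and release enkephalin. After dopamine is lost, D1 receptors become supersensitive, and L-DOPA then drives cAMP and ERK signalling to the nucleus, where the transcription factor CREB binds the cAMP response element.

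The promoters of 3 of the genes that rose are shown because each carries letters of the cAMP response element close to the start of transcription. Each line gives 150 bases that end at the base before the RefSeq start in build GRCr8, 5′ to 3′ in the direction of the gene. Capitals mark TGACGTCA, the full element, in Th and Scg2 and CGTCA, one arm of it, in Trh.
Trh, chr4:126301763-126301912, minus strand: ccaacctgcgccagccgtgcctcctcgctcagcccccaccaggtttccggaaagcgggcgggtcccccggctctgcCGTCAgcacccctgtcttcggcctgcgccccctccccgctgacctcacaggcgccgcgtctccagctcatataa
Th, chr1:207508219-207508368, minus strand: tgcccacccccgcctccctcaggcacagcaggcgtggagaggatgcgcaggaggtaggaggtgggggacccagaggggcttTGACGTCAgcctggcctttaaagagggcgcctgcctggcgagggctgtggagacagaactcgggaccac
Scg2, chr9:88256867-88257016, minus strand: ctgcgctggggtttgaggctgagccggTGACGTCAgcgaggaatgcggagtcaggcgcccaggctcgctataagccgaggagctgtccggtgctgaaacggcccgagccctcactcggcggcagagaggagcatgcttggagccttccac

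The full element began 69 bases before the start in Th and 123 bases before it in Scg2, and the single arm in Trh began 74 bases before the start. In windows of 300 bases, 250 before and 50 after the start, TGACGTCA was found on either strand in 2% of 27457 genes, in 3.62% of the 138 genes called higher that had a window and in 3.63% of the 248 called lower. The shorter arm, TGACG on either strand, which TGACGTCA contains, was in 23% of all genes, 23.9% of those called higher and 29.8% of those called lower. TGANTCA, the AP-1 motif, was in 8.04% of all genes, 10.1% of those called higher and 6.45% of those called lower, and Plaur held it as TGACTCA 83 bases before its start. The same search listed none of these motifs for Pdyn and Lcn2, which rose, or for Hpcal4, Gabra5 and Gabra3, which fell. A gene without a window would also have none listed, so this does not show that the motifs are absent from those genes. The motif shares are a description of these letters, and the genes shown were chosen after their values were seen.

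A row was called when its adjusted p in limma was under 0.05 and its fold change at least 1.2. Between the L-DOPA and untreated sides 217 rows were called higher (0.592% of all rows) and 437 lower (1.19%), so that 66.8% of the calls were lower. Among rows with 1 symbol 172 were higher and 323 lower. With 1 row per symbol, the brightest, the share called was 0.93% higher and 1.77% lower of 18166 symbols, and all 9 L-DOPA arrays lay above all 6 untreated arrays for 0.699% of symbols and below them for 1.18%. Differences were moderate, since 21 called genes stood more than 1 log2 unit higher and 26 more than 1 log2 unit lower. The counts moved with single rats. Leaving out PD replicate 1 left 89 higher and 146 lower, whereas leaving out LID replicate 2 gave 487 and 544. Arrays correlated between 0.973 and 0.986 within groups and between 0.966 and 0.987 across groups, and array medians lay between 5.56 and 5.65.

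Against each untreated group alone the counts were far apart. Against PD, 3 rows were called higher and 3 lower (0.00818% each), with 1406 and 1918 at an unadjusted p under 0.05. Against Normal, 148 were higher (0.403%) and 333 lower (0.908%). Between PD and Normal 0 rows were called by limma (smallest adjusted p = 0.784), beside 1772 rows at an unadjusted p under 0.05. The comparisons with PD and with Normal share the L-DOPA arrays. The 3 L-DOPA groups were compared with each other by an F test, which called 0 rows (0%, smallest adjusted p = 0.967), beside 1719 rows at an unadjusted p under 0.05. Rows called against PD alone were Trh, Pdyn and B3gnt5, all higher, and Kcnb2, Spata32 and a row without a single symbol, all lower. Spata32 was under the dim level in every array.

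Trh, Pdyn and Scg2 were the neuropeptide and granin genes with the firmest rises. Trh encodes thyrotropin-releasing hormone, a tripeptide known from the hypothalamus and also made by neurons elsewhere in the brain. Its log2 level was 7.51, 8.61 and 8.99 at the lowest, median and highest L-DOPA array and 5.02, 5.22 and 5.67 in untreated striatum. No treated rat came near an untreated one, and every untreated array lay under 5.85, the dim level taken from olfactory receptor rows. The difference was 3.21 (SE 0.16, adjusted p = 1.33e-06), or 2.61 with the untreated side set at the dim level, and it was 3.33 against PD and 3.09 against Normal. LID+Vehicle rats were closely spaced at 8.92 ± 0.07 (SD, n = 3), LID rats averaged 8.45 ± 0.18 and LID+PD98059 rats 8.01 ± 0.62, and these 3 groups had an unadjusted F test p of 0.00833 that did not pass over all rows.

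**Figure D1:**
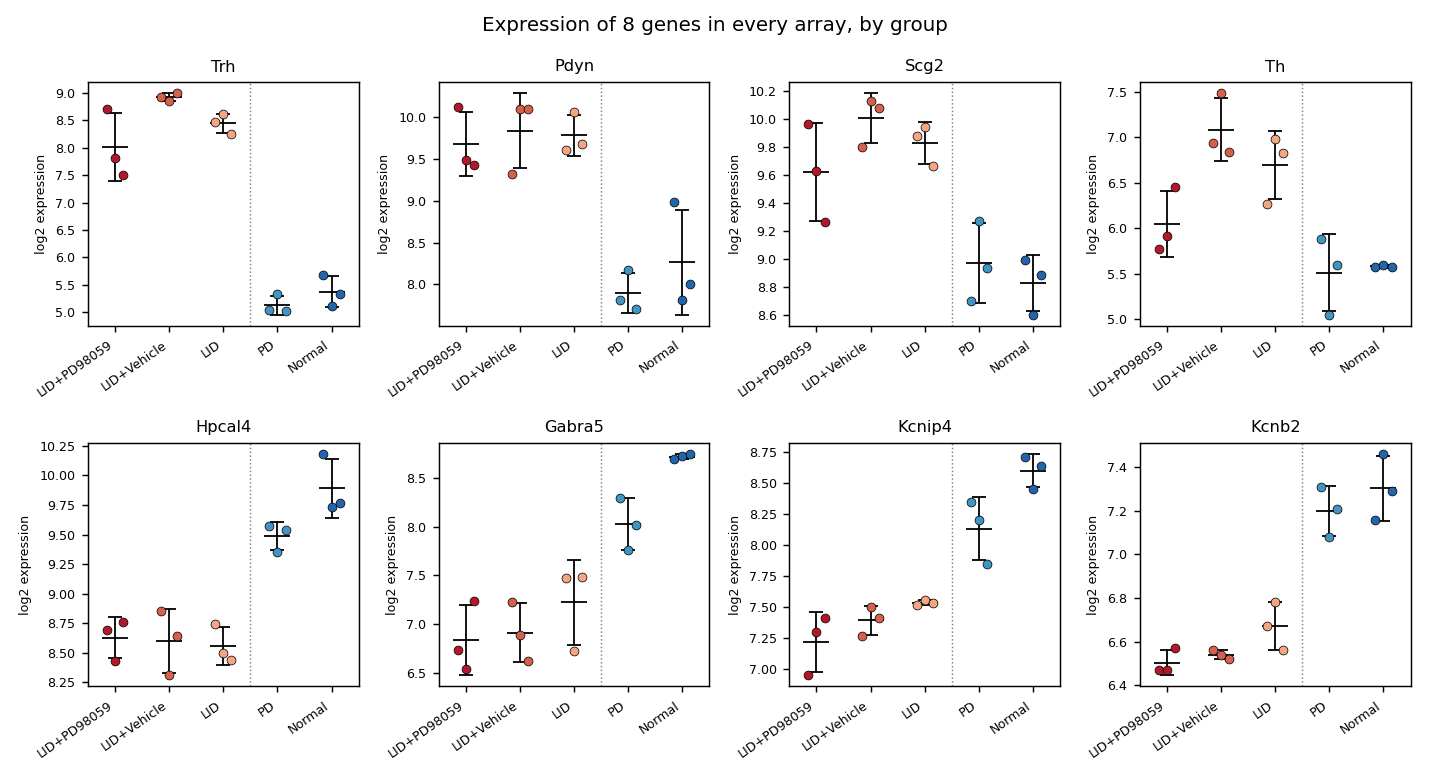
Log2 expression (y axis) of Trh, Pdyn, Scg2, Th, Hpcal4, Gabra5, Kcnip4 and Kcnb2 in each array (points) of the 5 groups (x axis), with group means and SD (bars, n = 3). L-DOPA groups stand left of the dotted line. The L-DOPA and untreated arrays do not overlap for Trh, Pdyn, Hpcal4, Gabra5, Kcnip4 and Kcnb2, while for Scg2 and Th 1 L-DOPA array lies under the highest untreated one.

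Pdyn encodes prodynorphin, the dynorphin precursor of direct pathway neurons. L-DOPA arrays read 9.32, 9.67 and 10.11 (lowest, median, highest) and untreated arrays 7.71, 7.92 and 8.98. Only Normal replicate 1, at 8.98, approached the treated range. The difference was 1.68 (SE 0.20, adjusted p = 0.00206), with 1.86 against PD and 1.49 against Normal. Scg2 encodes secretogranin II, a granin of dense-core vesicles that is cut into the peptide secretoneurin, and it was at 9.26, 9.88 and 10.13 in L-DOPA arrays and at 8.60, 8.91 and 9.27 in untreated arrays. The sides touched only between the lowest treated and the highest untreated rat, with a difference of 0.92 (SE 0.12, adjusted p = 0.00338). The calls of Trh, Pdyn and Scg2 were kept without any 1 of the 15 arrays. Without the Normal group the call of Scg2 was lost, while those of Trh and Pdyn were kept. Scg2 stood at 0.85 against PD, where it was not called (adjusted p = 0.0792), and at 0.99 against Normal. Tac3, a tachykinin precursor that gives neurokinin B, rose by 1.03 (SE 0.21, adjusted p = 0.031), but its call was lost without any 1 of 10 arrays, with adjusted p up to 0.0932.

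Of 24 neuropeptide and granin genes measured, 4 rose (16.7%, beside 0.93% of all symbols) and 0 fell. The median difference was 0.01 and 12 were positive and 12 negative. Other projection neuron peptides did not pass. Penk, the enkephalin precursor of the indirect pathway, differed by 0.31 (adjusted p = 0.217) and Tac1, the substance P precursor of the direct pathway, by 0.25 (adjusted p = 0.433). Vgf, a granin-like gene induced by neurotrophins, differed by 0.49 (adjusted p = 0.0656). Trhde encodes the ectoenzyme that breaks down Trh outside the cell, and it fell by 0.89 (SE 0.19, adjusted p = 0.0357), a call lost without any 1 of 9 arrays. Its array values were 5.40, 5.80 and 6.38 on the L-DOPA side and 6.23, 6.66 and 7.52 on the untreated side.

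Th encodes tyrosine hydroxylase, the rate-limiting enzyme of dopamine synthesis. It read 5.77, 6.83 and 7.48 in L-DOPA arrays and 5.05, 5.58 and 5.88 in untreated arrays. Of the untreated arrays 5 of 6 were under the dim level, and the lowest treated rats came from LID+PD98059, whose mean was 6.04 ± 0.36, against 7.08 ± 0.35 in LID+Vehicle and 6.69 ± 0.37 in LID (SD, n = 3 each). The difference between the sides was 1.06 (SE 0.16, adjusted p = 0.00721) and was alike against PD (1.10) and Normal (1.03), and the call held without any 1 array. With the dim level as a floor 0.75 remained, and the call was lost without the LID+Vehicle or the Normal group. Of 10 catecholamine genes Th was the only one called (10%, beside 0.93% of all symbols called higher). Th belongs to the genes that the study singled out on these same arrays, as do Tpbg, Gpat3, Ubash3b, Plaur, Hcrtr1 and Sik1, so their rise is not independent evidence. Ubash3b, which encodes a phosphatase that dampens tyrosine kinase signalling, rose by 0.50 (SE 0.06, adjusted p = 0.00311), Gpat3, an enzyme of triglyceride synthesis, by 0.59 (SE 0.08, adjusted p = 0.00479), and Tpbg, a membrane glycoprotein, by 0.91 (SE 0.13, adjusted p = 0.00538). For these 3 genes the sides did not overlap, but the L-DOPA groups differed in level. In LID+PD98059, LID+Vehicle and LID, Ubash3b averaged 7.07, 7.64 and 7.39, Gpat3 6.14, 6.76 and 6.20, and Tpbg 7.25, 7.80 and 7.67. The calls of Ubash3b and Gpat3 were lost without the LID+Vehicle group. Those of Gpat3 and Tpbg were lost without the Normal group, and that of Gpat3 also without PD. Arnt, the partner of hypoxia-inducible factors, differed by 0.23 (SE 0.07) without passing (adjusted p = 0.106). The study singled out Arnt too, from LID against PD on these arrays, which is not the comparison of joined sides made here. For both Th and Arnt it also reports mRNA raised by L-DOPA in RT-PCR on other rats. Its immunofluorescence counts of striatal neurons positive for TH and for ARNT rose with L-DOPA as well.

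Of the lists that answer cAMP and ERK signalling, immediate early genes had 3.85% called higher and ERK feedback targets 5.56%, beside 0.93% of all symbols. Each share was 1 gene. Sik1, a kinase induced by cAMP, rose by 0.47 (SE 0.07, adjusted p = 0.00739). It averaged 7.85 in LID+Vehicle, 7.67 in LID and 7.36 in LID+PD98059, against 7.28 in PD and 7.03 in Normal. The call of Sik1 was lost without the LID+Vehicle or the Normal group. Crem, which encodes CREB-like activators and repressors, rose by 0.40 (SE 0.08, adjusted p = 0.0262), although its call was lost without any 1 of 5 arrays. In the immediate early gene list 1 of 26 genes rose, Sik1, and 1 fell, Nr4a2, with a median difference of 0.15. Fosb, which gives the stable isoform associated with dyskinesia, was at 5.93, 6.83 and 7.41 in L-DOPA arrays and at 6.48, 6.76 and 7.03 in untreated arrays. The treated arrays straddled the untreated ones, at 0.03 (SE 0.12, adjusted p = 0.941). The treated groups did not lie together. Fosb averaged 7.16 in LID+Vehicle, 6.83 in LID and 6.30 in LID+PD98059, against 6.78 in PD and 6.69 in Normal. Among the L-DOPA groups the unadjusted F test p was 0.00161, which did not pass over all rows. These are the values of the 1 row that carries the symbol Fosb. The study doubts how well the array's probes for this gene were designed, and its other Fosb probe sets were not analysed here. It reports FosB mRNA raised by L-DOPA in RT-PCR and in 1 other probe set, and more protein of the stable isoform. Its tissue was taken hours after the last L-DOPA dose, and the effect of that interval was not tested. The level of the whole list was 6.95, 7.11 and 8.11 on the L-DOPA side and 6.96, 7.08 and 7.19 on the untreated side, and the 8.11 was LID+Vehicle replicate 1 alone. Egr3, a zinc finger factor of the same list, differed by 0.59 without passing (adjusted p = 0.0571). Of 18 ERK feedback targets 1 rose, Plaur, and 0 fell, 11 were positive and the median was 0.23. Ier3, an early response gene of that list, differed by 0.57 with no overlap between the sides but did not pass (adjusted p = 0.0577). The level of the list was 6.85, 6.99 and 7.76 in L-DOPA arrays and 6.83, 6.91 and 7.0 in untreated arrays, and the 7.76 was again LID+Vehicle replicate 1.

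Among secreted factors, Fgf2, a growth factor made mostly by astrocytes in the brain, rose by 0.67 (SE 0.11, adjusted p = 0.0111) with no overlap, at 6.61, 6.86 and 7.75 in L-DOPA arrays and 6.14, 6.38 and 6.51 in untreated arrays. Inhba, an activin subunit, rose by 0.87 and Tgfb1 by 1.12, and both calls were lost without any 1 of 10 or more arrays, with adjusted p up to 0.109 and 0.103. Of 16 plasminogen activator and matrix protease genes 5 rose (31.25%) and 1 fell (6.25%), and 14 were positive (median 0.26). Over all symbols 0.93% were called higher and 1.77% lower. Plat, tissue plasminogen activator, rose by 0.67 (SE 0.13, adjusted p = 0.023) and Plaur, the urokinase receptor, by 0.73 (SE 0.13, adjusted p = 0.0178). Serpini1, neuroserpin, the neuronal inhibitor of Plat, fell by 0.68 (SE 0.09, adjusted p = 0.00338). Serpini1 was at 7.13, 7.34 and 7.58 in L-DOPA arrays and 7.71, 7.95 and 8.56 in untreated arrays. The other 3 genes that rose were Timp1, Timp3 and Mmp14, by 2.63, 0.32 and 0.49. Timp3 stood at 0.16 against PD and 0.48 against Normal. The calls of Timp3 and Mmp14 were each lost without any 1 of 5 arrays (adjusted p up to 0.0595 and 0.073), and 0.31 of the difference of Mmp14 remained with the dim level as a floor. The call of Serpini1 held without any 1 array, Plaur lost its call without Normal replicate 3 (adjusted p = 0.0511), and Plat without any 1 of 5 untreated arrays. Reactive astrocyte markers moved with several of these genes: with the level of those markers as a covariate, added after the data had been seen, Plat was at 0.32, Timp1 at 0.70, Fgf2 at 0.29 and Tgfb1 at 0.32, while Plaur was at 0.85 and Serpini1 at -0.80. Timp1 belongs to that marker list too.

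**Figure D2:**
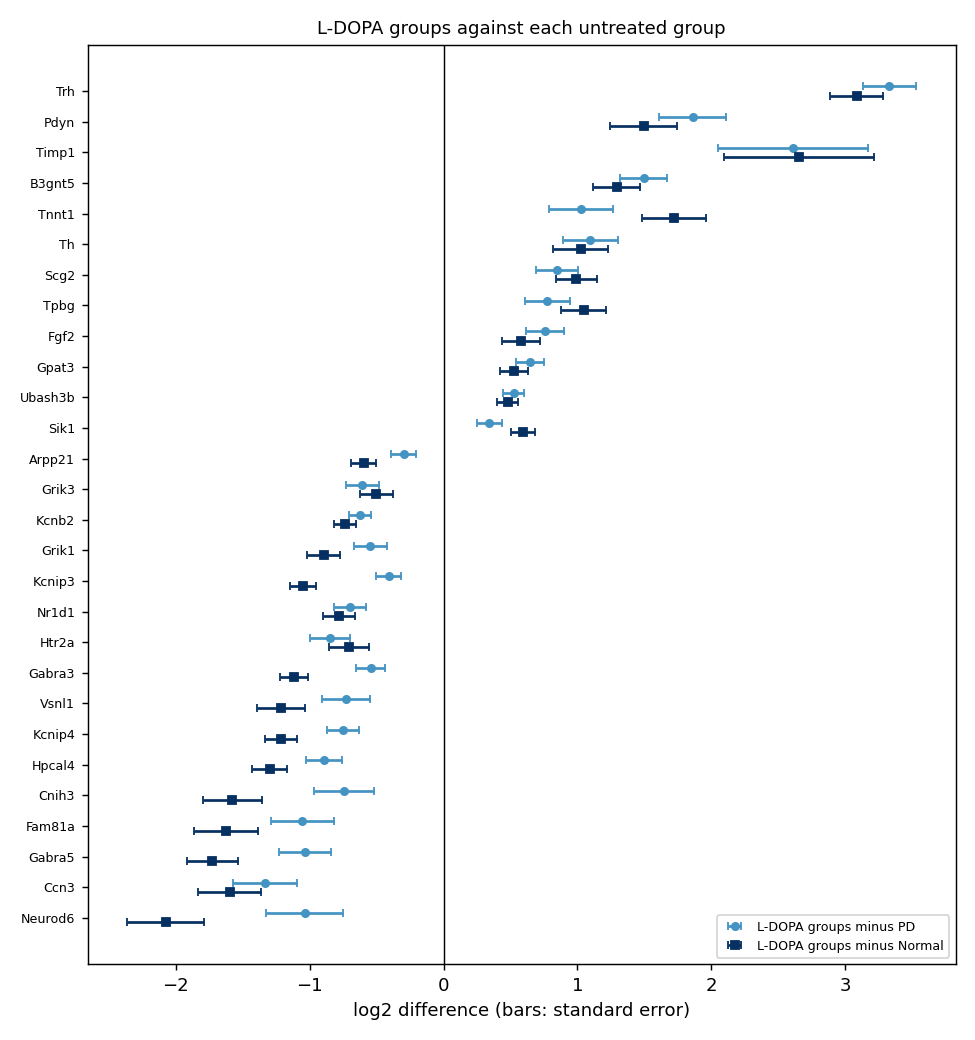
Log2 difference (x axis) of the 3 L-DOPA groups together from PD (circles) and from Normal (squares) for 28 genes (y axis), with standard errors. The L-DOPA arrays are shared by both sets of points. Trh stands at 3.33 and 3.09, and genes such as Gabra5 and Neurod6 stand farther from Normal than from PD.

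Lcn2, lipocalin 2, an acute phase protein of reactive astrocytes, rose about as far as Trh on the joined sides, with a wider error. It ranged from 5.76 over a median of 7.59 to 11.05 in L-DOPA arrays and was 4.90, 5.32 and 5.66 in untreated arrays. All treated rats were above all untreated ones, but the treated range was wide, with 9.84 ± 2.06 in LID+Vehicle, 9.19 ± 1.78 in LID+PD98059 and 6.76 ± 0.93 in LID (SD, n = 3 each). The difference was 3.27 (SE 0.61, adjusted p = 0.0185), and the call was lost without PD replicate 1 or Normal replicate 3 (adjusted p up to 0.0567). With the dim level as a floor 2.75 remained. Timp1, an inhibitor of matrix proteases, rose by 2.63 (SE 0.44, adjusted p = 0.0115), at 7.0, 8.86 and 10.73 in L-DOPA arrays and 5.83, 6.04 and 6.30 in untreated arrays. Gfap, the intermediate filament of astrocytes, rose by 1.16 (SE 0.25, adjusted p = 0.0355), a call lost without any 1 of 11 arrays. S100a11, A2m, C3ar1 and Fxyd5 were called 1.62, 1.56, 1.52 and 1.10 higher, and each call was lost without any 1 of at least 11 arrays. All untreated arrays of S100a11 were under the dim level, and 0.96 remained with that level as a floor. Hspb1, a small heat shock protein of stressed glia, differed by 1.95 (SE 0.49) without passing (adjusted p = 0.0635), and Ptgs2, cyclooxygenase 2, by 0.77 (adjusted p = 0.0954).

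Of 14 reactive astrocyte markers 3 rose (21.4%, beside 0.93% of all symbols), and 13 were positive with a median of 1.19. The level of the list was 6.73, 7.66 and 9.18 in L-DOPA arrays and 6.20, 6.45 and 6.62 in untreated arrays, so the sides did not overlap. It averaged 8.28 in LID+Vehicle, 7.76 in LID+PD98059 and 7.38 in LID. Microglia markers (0 called of 15, all positive, median 1.05) and interferon-stimulated genes (0 called of 21, all positive, median 1.18) overlapped between the sides. The microglia level was 7.43, 8.92 and 9.57 in L-DOPA arrays and 7.25, 7.84 and 8.71 in untreated arrays. In both lists some treated rats of every L-DOPA group lay within the untreated range. With the reactive astrocyte level as a covariate, added after the data had been seen, Lcn2 stood at 0.72, Timp1 at 0.70, S100a11 at 0.16 and Gfap at 0.22, of which Lcn2, Timp1 and Gfap are members of that list. Under the same covariate Trh kept 3.27 (adjusted p = 0.0011), Pdyn 2.0 (adjusted p = 0.0485) and Itga7, an integrin of muscle and glia, 1.73 (adjusted p = 0.0149).

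**Figure D3:**
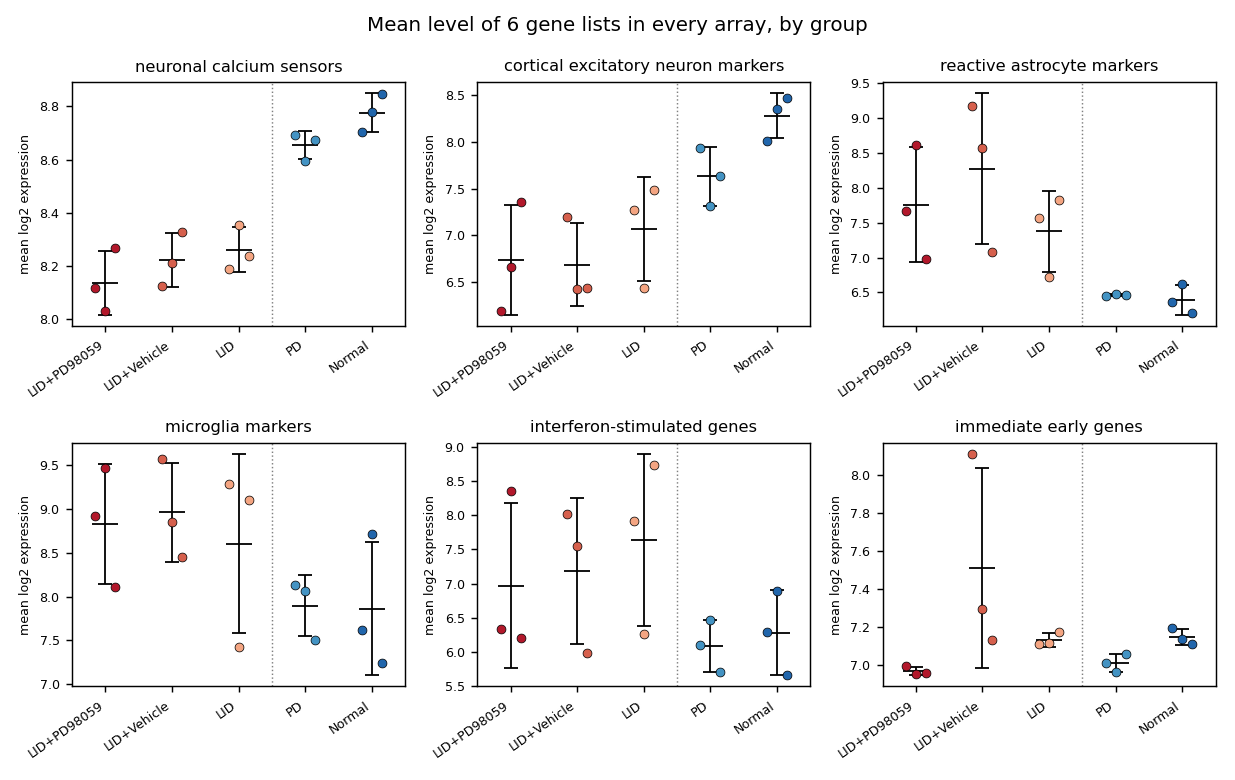
Mean log2 level (y axis) of 6 gene lists in each array (points) of the 5 groups (x axis), with group means and SD (bars, n = 3). Calcium sensors and reactive astrocyte markers do not overlap between the L-DOPA groups and the untreated groups, while immediate early genes stand high in LID+Vehicle replicate 1 alone, at 8.11.

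Other genes called higher belonged to no single function. Tnnt1, a slow skeletal troponin, rose by 1.37 (SE 0.19, adjusted p = 0.00403) with no overlap. Vdr, the vitamin D receptor, rose by 1.13 (SE 0.19, adjusted p = 0.0108) on arrays that were all under the dim level in untreated rats, and 0.16 of this remained with the untreated side at that level. Itga7 rose by 1.12 (SE 0.18, adjusted p = 0.0103). Htr1b, a serotonin autoreceptor and heteroreceptor, rose by 0.89 (SE 0.17, adjusted p = 0.0234), and its call was lost without any 1 of 5 arrays. Htr1b stood at 0.46 against PD and 1.31 against Normal. Hcrtr1, an orexin receptor, rose by 0.79 (adjusted p = 0.0242) and lost its call without any 1 of 5 arrays. All 6 untreated and 3 L-DOPA arrays of Hcrtr1 were under the dim level, and 0.26 remained with that level as a floor. B3gnt5, a glycosyltransferase of lacto-series glycolipids, was 1.39 higher (SE 0.14, adjusted p = 0.00103), with 5 of 9 treated arrays and every untreated array under the dim level, which left a difference of 0 with that level as a floor. Of stress and metabolic genes, Hspa5, the chaperone of the endoplasmic reticulum, rose by 0.45 and Slc2a1, a glucose transporter, by 0.48, both lost without any 1 of at least 11 arrays, and Shmt2, a mitochondrial enzyme of serine metabolism, rose by 0.57 (SE 0.10, adjusted p = 0.0147).

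Neuronal calcium sensors are small proteins that pass changes in calcium to channels and receptors, and 4 of 11 fell (36.4%, beside 1.77% of all symbols). Hpcal4, a hippocalcin relative, was at 8.31, 8.64 and 8.85 in L-DOPA arrays and at 9.35, 9.65 and 10.18 in untreated arrays. No treated rat reached the lowest untreated one, and the difference was -1.10 (SE 0.10, adjusted p = 0.000843), with -0.89 against PD and -1.30 against Normal. Kcnip4, which modulates A-type potassium channels, read 6.95, 7.41 and 7.56 in L-DOPA arrays and 7.85, 8.40 and 8.71 in untreated arrays, a difference of -0.98 (SE 0.09, adjusted p = 0.000843). Kcnip3, also a transcriptional repressor of Pdyn known as DREAM, differed by -0.73 (SE 0.08, adjusted p = 0.00128), and Vsnl1, visinin-like 1, by -0.97 (SE 0.14, adjusted p = 0.00538). Kcnip3 stood at -0.41 against PD and -1.05 against Normal, and Vsnl1 at -0.73 and -1.22. The 4 genes had no overlap between the sides, which held in this direction for 1.18% of all symbols. They kept their calls without any 1 array, and all 4 calls were lost without the Normal group. All 11 calcium sensor genes measured were negative (median -0.37), 4 fell and 0 rose, and the level of the list was 8.03, 8.21 and 8.35 in L-DOPA arrays, against 8.59, 8.70 and 8.85 in untreated arrays.

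Potassium channels fell in number. Of 28 measured, 7 fell (25%, beside 1.77% of all symbols) and 1 rose (3.57%, beside 0.93%), and 25 were negative (median -0.28). Kcnb2, a delayed rectifier subunit, was at 6.47, 6.56 and 6.78 in L-DOPA arrays and 7.08, 7.25 and 7.46 in untreated arrays. The values were tight on both sides, and the difference of -0.68 (SE 0.06, adjusted p = 0.000843) was close to equal against PD (-0.62) and Normal (-0.73). Kcnj6, Kcnj9 and Kcnj3 encode subunits of the channels opened by G protein-coupled receptors, and they fell by 1.59, 0.64 and 0.74 (adjusted p = 0.0141, 0.00691 and 0.0315). Kcnj6 lost its call without PD replicate 1 (adjusted p = 0.0507), Kcnj3 without any 1 of 10 arrays, and Kcnj9 kept it throughout. Kcnma1, the large conductance calcium-activated channel, fell by 0.48 (SE 0.08, adjusted p = 0.0108), and Kcnc2 and Kcng3, voltage-gated subunits, fell by 0.86 and 0.52, both lost without any 1 of at least 9 arrays. Kcne5, an accessory subunit, was the one that rose, by 0.53 (SE 0.07, adjusted p = 0.00474), with 0.19 against PD and 0.88 against Normal. Kcnk4, a mechanosensitive leak channel outside that count, fell by 1.22 (SE 0.22, adjusted p = 0.0149), a call lost without PD replicate 1 (adjusted p = 0.0526).

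**Figure D4:**
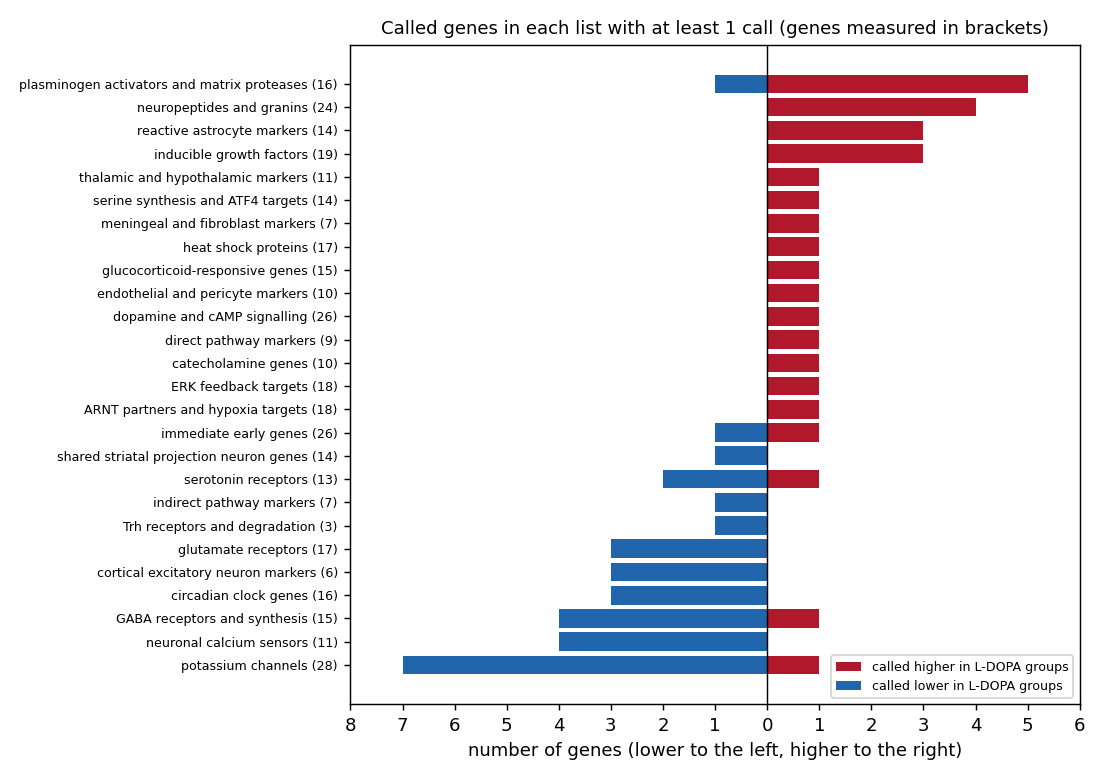
Number of genes called higher (right) or lower (left) in the L-DOPA groups (x axis) for each gene list with at least 1 call (y axis), with the number of genes measured in brackets. Plasminogen and matrix genes (5 higher, 1 lower) lead on the right and potassium channels (1 higher, 7 lower) on the left. Over all symbols 0.93% were called higher and 1.77% lower. The lists were chosen with earlier results of these data known.

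Receptor genes fell in part. Over all symbols 1.77% were called lower and 0.93% higher. Of 15 genes of GABA receptors and synthesis, 4 fell (26.7%) and 1 rose (6.67%). Gabra5, the subunit of extrasynaptic GABA-A receptors, was at 6.54, 6.89 and 7.48 in L-DOPA arrays and at 7.76, 8.49 and 8.74 in untreated arrays, and Gabra3, another alpha subunit, at 7.97, 8.28 and 8.47 against 8.62, 9.22 and 9.51. Neither gene overlapped between the sides, and their differences were -1.38 (SE 0.15, adjusted p = 0.00148) and -0.83 (SE 0.08, adjusted p = 0.00103). Gabra5 stood at -1.04 against PD and -1.73 against Normal, and Gabra3 at -0.54 and -1.12. Gabbr2, a GABA-B subunit, fell by 1.05 and Gabrb1 by 0.42, calls lost without 2 and without any 1 of 8 arrays, while Gad1, which makes GABA, rose by 0.48 (adjusted p = 0.039), a call lost without any 1 of 9 arrays. Of 17 glutamate receptor genes 3 fell (17.65%) and 0 rose. They were Grik1 (-0.72, adjusted p = 0.00362, under the dim level in all 9 L-DOPA and 4 of 6 untreated arrays, so that a difference of 0 remained with that level as a floor), Grik3 (-0.55, adjusted p = 0.0132), both kainate receptor subunits, and the AMPA receptor subunit Gria3 (-0.44, adjusted p = 0.0331, lost without any 1 of 10 arrays). Of 13 serotonin receptor genes 1 rose (7.69%), Htr1b, and 2 fell (15.38%), Htr2a and Htr1a. Htr2a was at 7.30, 7.62 and 7.88 in L-DOPA arrays and 8.15, 8.36 and 8.66 in untreated arrays, a difference of -0.78 (SE 0.12, adjusted p = 0.00677) that was -0.85 against PD. Htr1a was called lower by 0.45 on arrays that were all under the dim level.

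Of 16 circadian clock genes 3 fell (18.75%, beside 1.77% of all symbols) and 0 rose. Nr1d1, the nuclear receptor REV-ERB alpha of the clock's feedback loop, stood at 8.27, 8.49 and 8.82 in L-DOPA arrays and 9.10, 9.25 and 9.57 in untreated arrays. The sides did not overlap, and the difference was -0.74 (SE 0.09, adjusted p = 0.00311), with -0.70 against PD and -0.78 against Normal. Ciart, a circadian repressor, fell by 0.48 (adjusted p = 0.0311) and Bmal1, the core activator, by 0.33 (adjusted p = 0.0262), and these calls were lost without any 1 of 9 and of 7 arrays.

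Genes known from the cortex were among the genes that fell furthest. Neurod6, Tbr1 and Neurod2, transcription factors of cortical excitatory neurons, fell by 1.56, 1.52 and 1.09 (adjusted p = 0.00537, 0.0384 and 0.0181). All 6 genes of the cortical excitatory neuron list were negative, with a median of -1.31 and 3 called lower (50%, beside 1.77% of all symbols). Tbr1 lost its call without any 1 of 9 arrays and Neurod2 without PD replicate 1 or Normal replicate 3. Neurod6 lay under the dim level in all 9 L-DOPA arrays, and its difference was -0.45 with those arrays set at that level. The level of the list was 6.19, 6.66 and 7.48 in L-DOPA arrays and 7.31, 7.98 and 8.47 in untreated arrays, and only a small stretch was shared. The mean was 7.63 in PD and 8.28 in Normal, a difference that was not tested. Nr4a2, an orphan nuclear receptor found in dopamine neurons and in deep cortical layers, was at 6.68, 7.99 and 8.91 in L-DOPA arrays and 9.01, 9.54 and 9.83 in untreated arrays, a fall of 1.63 (SE 0.33, adjusted p = 0.0277) lost without any 1 of 6 arrays. Ccn3, a matricellular protein, fell by 1.46 (SE 0.19, adjusted p = 0.00311), Fam81a by 1.34 (SE 0.19, adjusted p = 0.00437) and Cnih3, an AMPA receptor auxiliary subunit, by 1.16 (SE 0.18, adjusted p = 0.00657), all without overlap. Cnih3 lay under the dim level in 6 of 9 L-DOPA arrays, and its difference was -0.90 with that level as a floor. Cadps2, a priming factor of dense-core vesicles, fell by 1.45, Rspo3, a secreted enhancer of Wnt signalling, by 1.51, Sidt1 by 1.19 and Catsperz by 1.13, and each lost its call without some single arrays. Rspo3 lay under the dim level in 7 of 9 L-DOPA arrays and Catsperz in 6 of 9, and with that level as a floor both differences were -0.70.

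When the level of the cortical markers entered the fit as a covariate, also after the data had been seen, the genes called lower separated by how much of their difference was kept. The difference of Kcnj6 was -0.18 (SE 0.17) with the covariate, that of Gabbr2 -0.18, of Trhde -0.07, of Cadps2 -0.03 and of Nr4a2 -0.17. Neurod2, at -0.11, is itself one of the markers averaged in the covariate. In contrast Hpcal4 kept -0.96 (SE 0.19), Kcnip4 -0.90, Kcnip3 -0.66, Kcnb2 -0.63, Nr1d1 -0.78 and Htr2a -1.06, while Gabra5 was at -0.69 and Vsnl1 at -0.46. None of these genes passed the adjusted threshold with the covariate (for Hpcal4, adjusted p = 0.103). Over all rows 1 was called higher with this covariate, Trh at 2.62 (adjusted p = 0.00167), and 1 lower, Cdh13, an adhesion molecule of the cadherin family, at -0.89 (adjusted p = 0.0396), against -0.49 without the covariate. The median row called higher kept 110% of its difference and the median row called lower 87%, and 89 of 437 rows called lower kept under 50%. The covariate itself differed between the sides, and standard errors grew with it, from 0.10 to 0.19 for Hpcal4. Pdyn and Scg2 were at 0.88 and 0.40 under it and Th at 1.26.

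**Figure D5:**
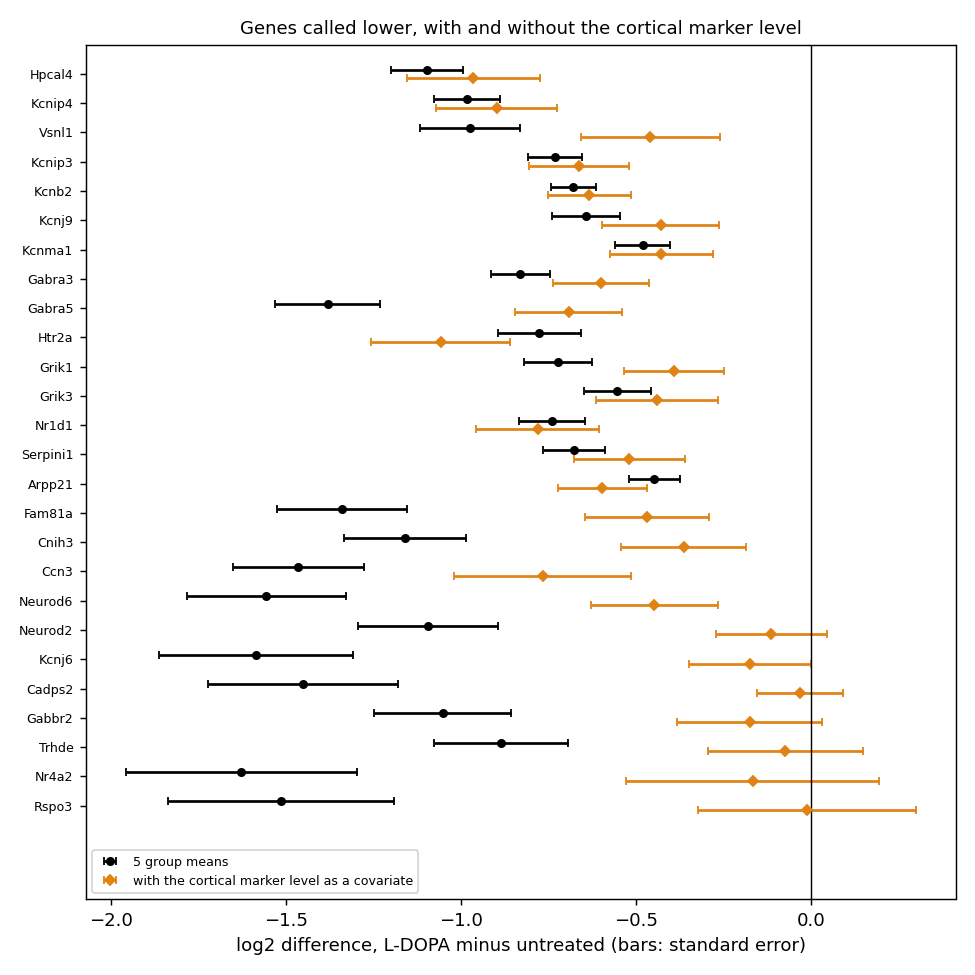
Log2 difference between the L-DOPA and untreated sides (x axis) of 26 genes called lower (y axis), from 5 group means (circles) and with the level of the cortical markers added to the fit (diamonds), with standard errors. Hpcal4 stands at -1.10 and -0.96, and Kcnj6 at -1.59 and -0.18.

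Markers that define the striatum were present on both sides. The 14 genes shared by projection neurons had a level of 9.37, 10.03 and 10.29 in L-DOPA arrays and 9.74, 10.17 and 10.37 in untreated arrays, which overlapped. Of these 14 genes 11 were negative, with a median of -0.12, and 1 fell, Arpp21, a phosphoprotein regulated by dopamine and cAMP. Arpp21 was at 9.19, 9.42 and 9.54 in L-DOPA arrays and 9.60, 9.81 and 10.07 in untreated arrays, which did not overlap, and the difference was -0.45 (SE 0.07, adjusted p = 0.0108). The direct and indirect pathway lists had 1 call each, Pdyn higher and Grik3 lower. Of the lists of other cells and regions, 3 held a single call, all higher: Dcn, a matrix proteoglycan of meningeal fibroblasts (0.91, adjusted p = 0.0206), Cdh5 of endothelial cells (0.40, adjusted p = 0.0216) and Prkcd, a kinase C of the thalamus (1.12, adjusted p = 0.0335). The thalamic and hypothalamic list of Prkcd had 7 of 11 members negative and a median of -0.01. Interneuron, choroid plexus, ependymal, blood cell and oligodendrocyte markers held no call. Without PD replicate 1 or Normal replicate 1 the call of Dcn was lost, and those of Cdh5 and Prkcd without any 1 of 5 and of 10 arrays. Cdh5 stood at 0.16 against PD and 0.65 against Normal.

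Of 352 rows for microRNA genes 0 were called higher and 3 lower, or 0.852%, which is not above the 1.19% of all rows called lower. These rows hold the hairpin or its precursor and do not measure the mature microRNA. Mir128-1 was at 5.69, 6.10 and 6.20 in L-DOPA arrays and 6.28, 6.78 and 7.31 in untreated arrays, a fall of 0.78 (SE 0.11, adjusted p = 0.0052) without overlap. Its host gene R3hdm1 fell by 0.45 (SE 0.06, adjusted p = 0.00479), and Arpp21 is the host of the second miR-128 gene. Mir3577 fell by 0.38 (adjusted p = 0.0458), lost without any 1 of 11 arrays, and Mir421 by 0.55 (adjusted p = 0.0108) with every array under the dim level. The mature products of Mir128-1, a brain-enriched microRNA gene, are shown for identity with their seed, bases 2 to 8, in capitals, from RefSeq in build GRCr8, and the microRNA genes were chosen after their values were seen.
rno-miR-128-3p, chr13:42251933-42251953, plus strand: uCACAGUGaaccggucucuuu
rno-miR-128-1-5p, chr13:42251898-42251918, plus strand: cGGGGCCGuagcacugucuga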

How the data were processed

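Striatal RNA of 15 rats was measured on Rat Gene 2.0 ST arrays (Affymetrix). The authors deposited 1 log2 value per row and array from these arrays, which hybridise labelled cDNA of total striatal RNA, after background adjustment, RMA normalization and summary in Affymetrix Expression Console. The software's exon level option was used and probes of a transcript were combined by their median; the version was not given in the sources used here. The deposited log2 values were used without further scaling. RMA makes arrays comparable but compresses low levels, and with 3 arrays per group the number of arrays limits precision.

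limma 3.58.1 in R 4.3.3 fitted 1 mean for each of the 5 groups over all arrays, and contrasts weighted group means equally, two-sided, with Benjamini-Hochberg adjustment over 36685 rows. Plots were drawn with matplotlib 3.10.9. The script was tested on simulated data. Symbols came from the platform's probe table: 18511 rows had 1, 575 several and 17599 none. A symbol's brightest row stood for it. The dim level, 5.85, was the 95th percentile of 69 olfactory receptor rows. Of 581 genes in 41 lists, 517 were measured.

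Named genes were up to 15 called per direction with the largest difference and a mean above the dim level on the higher side, up to 4 per list with the smallest p, and those the study names, of which 24 of 30 were matched. B3gnt5, Spata32, Cdh13, R3hdm1 and microRNA genes fall outside this rule. Members and lists were chosen with earlier results of these data known. Promoters and mature microRNAs came from RefSeq tables of build GRCr8. Alternatives tried were other moderation, weights, normalization, filters, fold limits, a replicate block, marker levels as covariates and leaving out each group or array.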

Additional observations from a re-analysis of the deposited data

Results flagged for a closer look

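Of 262 sides of genes and list levels tested for 1 array far from the others, 24 were picked out, and 12 of the 24 were LID+Vehicle replicate 1. The limit picks out about 1 in 20 by chance among independent sides drawn from 1 population. Here each side pooled several groups, and lists held some of the same genes, so the count cannot be judged against that rate. Among L-DOPA arrays that rat stood apart for Dcn at 8.27, Plat at 10.3, Crem at 7.57, Ptgs2 at 10.6 and Mmp14 at 6.8, all high, and for Gria3 at 9.17, low. Its list levels were high for immediate early genes (8.11), ERK feedback targets (7.76), inducible growth factors (6.71), serine synthesis and ATF4 targets (7.63) and plasminogen activators and matrix proteases (7.69), and stood apart at 5.66 for thalamic and hypothalamic markers. Other L-DOPA arrays far from the rest were LID+Vehicle replicate 2 for Hspa5 (11.8), LID+PD98059 replicate 2 for Egr3 (7.06), Gabrb1 (8.39) and the interneuron marker level (6.13), and LID+PD98059 replicate 1 for Kcnip4 (6.95). Without LID+Vehicle replicate 1, 195 rows were called higher and 457 lower.

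Among untreated arrays, Normal replicate 1 was high for Pdyn (8.98), PD replicate 2 low for Th (5.05), Normal replicate 2 low for Vdr (4.38) and PD replicate 1 low for Crem (6.52). Normal replicate 2 stood apart in the levels of dopamine and cAMP signalling (8.32) and cholesterol synthesis genes (7.82), and Normal replicate 3 in that of glutamate receptors (8.41).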

How the results depend on the processing

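Counts are given as rows called higher and lower, 217 and 437 with 5 group means. They were 329 and 589 with 2 means only, 567 and 837 with array weights, 481 and 676 with dim rows removed (16955 rows tested) and 90 and 178 at a fold change of at least 1.5. Robust moderation, a trend, quantile normalization, median centring and no fold limit kept both counts within 1.5 times. Leaving out a whole group gave 121 and 215 without LID+PD98059, 97 and 206 without LID+Vehicle, 117 and 237 without LID, 83 and 186 without PD and 4 and 3 without Normal. Leaving out 1 array gave 89 to 487 higher and 146 to 606 lower, the lowest without PD replicate 1. Against PD, 6 rows were called, 16 with a trend, 57 with dim rows removed and 1 to 26 without 1 array, and against Normal 481, 854 with dim rows removed and 82 to 578 without 1 array, the lowest without Normal replicate 3. The cause of these shifts was not tested, beyond the fewer samples or rows entering each fit.

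Marker levels as covariates, chosen after seeing the data, left 1 and 1 rows called with cortical markers, 18 and 13 with reactive astrocyte markers and 59 and 71 with microglia markers. Each level differs between the sides or in spread, and whether cell makeup accounts for the differences was not tested.

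The titles number the replicates 1 to 3 in each group, but same-numbered arrays did not deviate together (r -0.411 to 0.235 over 30 pairs, median 0.0128), and 5 of 15 arrays correlated best with their own number. A replicate block gave 162 rows higher and 365 lower, and 2 against PD.

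Of 90 genes, 82 were called, and 39 of these kept the call without any 1 array. Signs turned for Fosb (-0.17 without the LID+Vehicle group, -0.0078 without LID, -0.018 without Normal, and -0.027 to 0.11 without 1 array), Penk (-0.20 with cortical markers), Tac1 (-0.094 without PD, -0.28 with cortical markers), Hspb1 (-0.16 with reactive astrocyte markers) and Tbr1 (0.23 with cortical markers, of which it is one). With 3 rats per group and values under the dim level compressed, small changes and changes of dim genes could be missed.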

Other observations

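Cell cycle genes were all positive between the L-DOPA and untreated sides, 15 of 15 with a median of 0.52, and 0 were called by limma. Of the 15 genes 6 lay above the dim level. The level of this list was 5.50, 6.09 and 7.40 (lowest, median, highest) in L-DOPA arrays. In untreated arrays it ranged from 5.53 to 5.93, so the sides overlapped. MHC and antigen presentation genes were positive in 13 of 14, with a median of 0.64 and 0 called. All 4 opioid receptor genes measured were negative, with a median of -0.22 and 0 called. Oligodendrocyte markers (0 called of 11, median 0.07) and homeostatic astrocyte markers (0 called of 9, median 0.05) lay close to the median of -0.01 over all symbols.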
